A study of Cervus nippon with 40 samples.

Results

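The predicted miRNAs of Sika Deer are those that carry a serial number (novel_ and a number) because no entry of miRBase, the public register of miRNAs, matched their reads. All such names listed in the 36 small RNA libraries of organs outside antler were taken, and 143 of the 448 names in those libraries were of this kind. Of these 143, 86 had at least 10 reads in sum over the 36 libraries and are described here. The other 57 held 293 reads together. Over the whole series, 500 names were listed in 40 libraries and 163 of them were numbered. The 4 antler libraries were left out, since their numbers were taken to name other miRNAs: novel_16, novel_23 and novel_25, which had reads in each of the 36 libraries, had 0 reads in antler.

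The libraries came from adrenal, brain, heart, kidney, liver, lung, skeletal muscle, spleen and testes of male Shuangyang deer at 4 stages: juvenile deer were 1, adolescence deer 3, adult deer 5 and aged deer 10 years old. RNA of 3 deer was pooled for each library, with 12 deer in all, so the organs of a stage share their deer, and a difference between stages cannot be told apart from a difference between those deer. The 4 libraries of an organ, 1 per stage, served as its replicates, and the spread between animals was not measured. Values are in RPM, which is 1000000 times the reads of a miRNA divided by all miRNA reads of its library, and library totals ran from 41866 reads (aged testes) to 7759033 reads (juvenile muscle). In these pools of organ RNA, fewer cells of a type and less RNA per cell cannot be told apart.

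A miRNA is a short RNA cut from a hairpin precursor, and it guides Argonaute proteins to messenger RNAs with matching sites, whose output it lowers. Prediction tools such as miRDeep propose further miRNAs where reads stack on a putative hairpin in the way that Dicer cleavage leaves them, so a numbered miRNA is a prediction with no assigned target or function. Many known miRNAs are confined to 1 tissue, such as miR-124 in neurons and miR-1 in striated muscle. The sequences of the predicted miRNAs were not analysed here.

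Before the predicted miRNAs were examined, the organ labels were compared with known miRNAs. The brain libraries held miR-124a at 2446 to 57640 RPM against at most 358 RPM elsewhere, miR-128 was likewise at its highest in brain (4.31 to 14.1 RPM), miR-1 made up 91.1 to 92.9% of the reads in muscle and 15.1 to 81.5% in heart, and miR-208b was highest in heart (18.2 to 78.1 RPM). miR-208a had reads in heart alone (1.10 to 6.2 RPM), miR-206 in muscle alone (0.923 to 1.93 RPM), and miR-192 was high in liver and kidney. Spleen held miR-150 at 31.1 to 325 RPM and miR-142-5p at 6.62 to 2849 RPM, values that overlapped those of other organs. The defining miRNAs miR-122 (liver), miR-223 (spleen) and miR-34c (testes) were not listed, miR-194 had at most 3.04 RPM in kidney, and miR-449a had reads in 1 of 4 testes libraries. By the correlation of 122 known miRNAs, 33 of 36 libraries were nearest to another library of their own organ. The other 3 were the pair of adolescence lung and aged spleen, each the nearest library of the other (r = 0.950), and juvenile testes, nearest to juvenile adrenal (r = 0.918). The total organ calls and the calls of later against earlier stages are given with and without these 3 libraries. So are the counts of predicted miRNAs highest in 1 organ or read in 1 organ alone. Shares, thinned counts, tallies by mean RPM and single-library comparisons are given with all 36 libraries only.

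Predicted miRNAs were a small part of every library. Together they had 26026 of 50618919 miRNA reads (0.0514%). The share was highest in liver (0.174 to 0.317% over the 4 stages) and testes (0.141 to 0.346%), followed by spleen (0.136 to 0.189%), adrenal (0.0872 to 0.156%), kidney (0.0925 to 0.138%) and brain (0.0562 to 0.119%). Lung (0.0454 to 0.0917%) and heart (0.0150 to 0.0949%) were lower, and muscle, with 0.00266 to 0.00749%, did not overlap with any other organ. The muscle and heart values moved with miR-1: with its reads taken out of the totals, a calculation chosen after seeing the data, the share was 0.0372 to 0.0930% in muscle and 0.0598 to 0.112% in heart, and muscle then overlapped with lung, brain, heart, adrenal and kidney. In this order, the ranges of all neighbours other than heart and muscle overlapped.

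**Figure D1:**
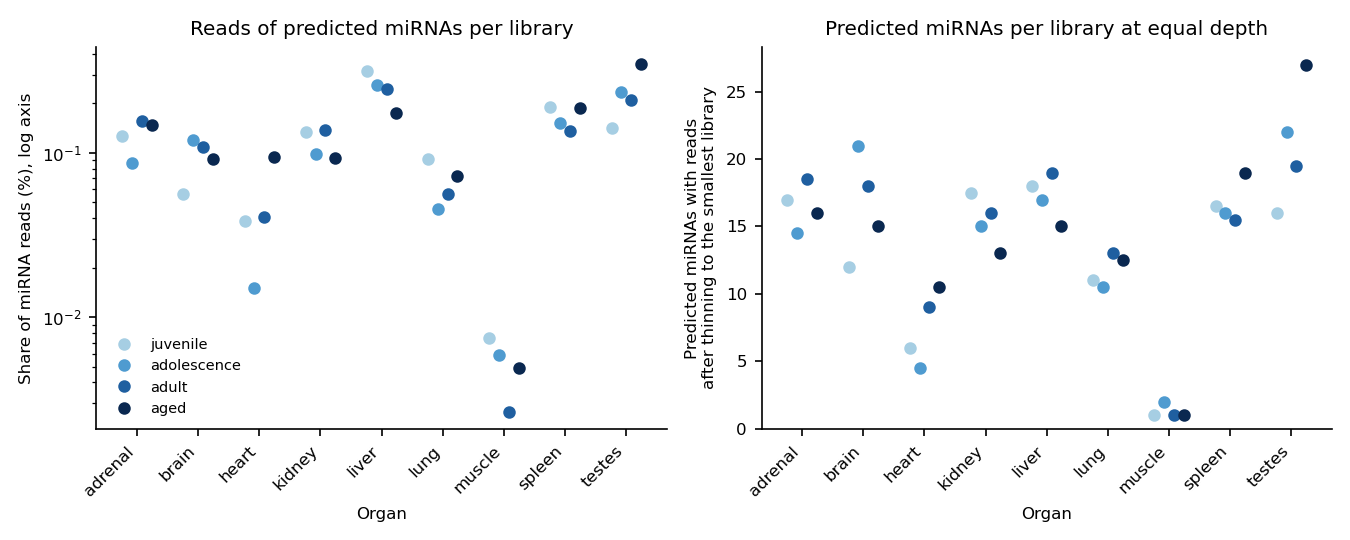
Share of miRNA reads held by the predicted miRNAs (left, percent on a log axis) and number of predicted miRNAs with reads after every library was thinned to the 41866 reads of the smallest (right), with 1 point per library and darker points for later stages. Muscle lies lowest in both panels, with 1 to 2 predicted miRNAs left at equal depth, and aged testes is highest with 27. miR-1 reads, most of those in muscle, count toward the totals in both panels.

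The number of predicted miRNAs with reads was not a simple function of depth. The 4 muscle libraries, with 5452979 to 7759033 reads, listed 25 to 41 of them, while spleen with 417621 to 905888 reads listed 54 to 67 and liver with 329913 to 698874 reads listed 53 to 61. The smallest library, aged testes, listed 27. The equal depth used next includes miR-1 reads, 91.1 to 92.9% of the total in muscle and 15.1 to 81.5% in heart. Thinned muscle and heart libraries therefore hold fewer reads other than miR-1 than those of the other organs. At an equal depth of 41866 reads, the count was 1 to 2 in muscle, 4.5 to 10.5 in heart, 10.5 to 13 in lung, 12 to 21 in brain, 13 to 17.5 in kidney, 14.5 to 18.5 in adrenal, 15 to 19 in liver, 15.5 to 19 in spleen and 16 to 27 in testes.

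Most of the reads belonged to few names. The median predicted miRNA had 16 reads in all (known miRNAs had a median of 45), 34 had at least 100 reads and 4 had at least 1000. The 3 with the most reads held 54% of all reads of predicted miRNAs and the 10 with the most held 75.5%. These 10 were novel_16 (7855 reads), novel_23 (4156), novel_25 (2044), novel_22 (1597), novel_40 (853), novel_38 (815), novel_146 (739), novel_66 (531), novel_49 (524) and novel_42 (523). novel_16 was the most abundant predicted miRNA in 25 of 36 libraries, where its rank among all names lay between 31 and 53. In the remaining 11 libraries the first was novel_22, novel_23, novel_25 or novel_40 (2 libraries each), novel_51 (adolescence lung), novel_206 (aged spleen) or novel_259 (adolescence brain).

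Presence was broad for some and narrow for others. Of the 86, 33 had reads in all 9 organs and 5 in 1 organ alone, and the median was 18 of 36 libraries (30 of 36 for the 201 known miRNAs with at least 10 reads). Only novel_16, novel_23 and novel_25 had reads in all 36 libraries, against 69 of 305 known miRNAs. With the rule of at least 3 reads in each library, 2 of the 3 remained, and with at least 10 reads 1 remained, novel_16, whose lowest count was 15 reads. By mean RPM over the 4 stages, liver was the highest organ for 22 of the 86, brain for 17, testes for 13 and spleen for 11. Kidney was the highest for 9, adrenal for 8, lung for 5, heart for 1 and muscle for 0. This tally is not adjusted for depth or for miR-1. In testes 1 read stood for up to 23.9 RPM, and testes was the highest organ of novel_165 and novel_144 on 1 testes read each. Muscle RPM is lowered by miR-1, which made up 91.1 to 92.9% of its reads.

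**Figure D2:**
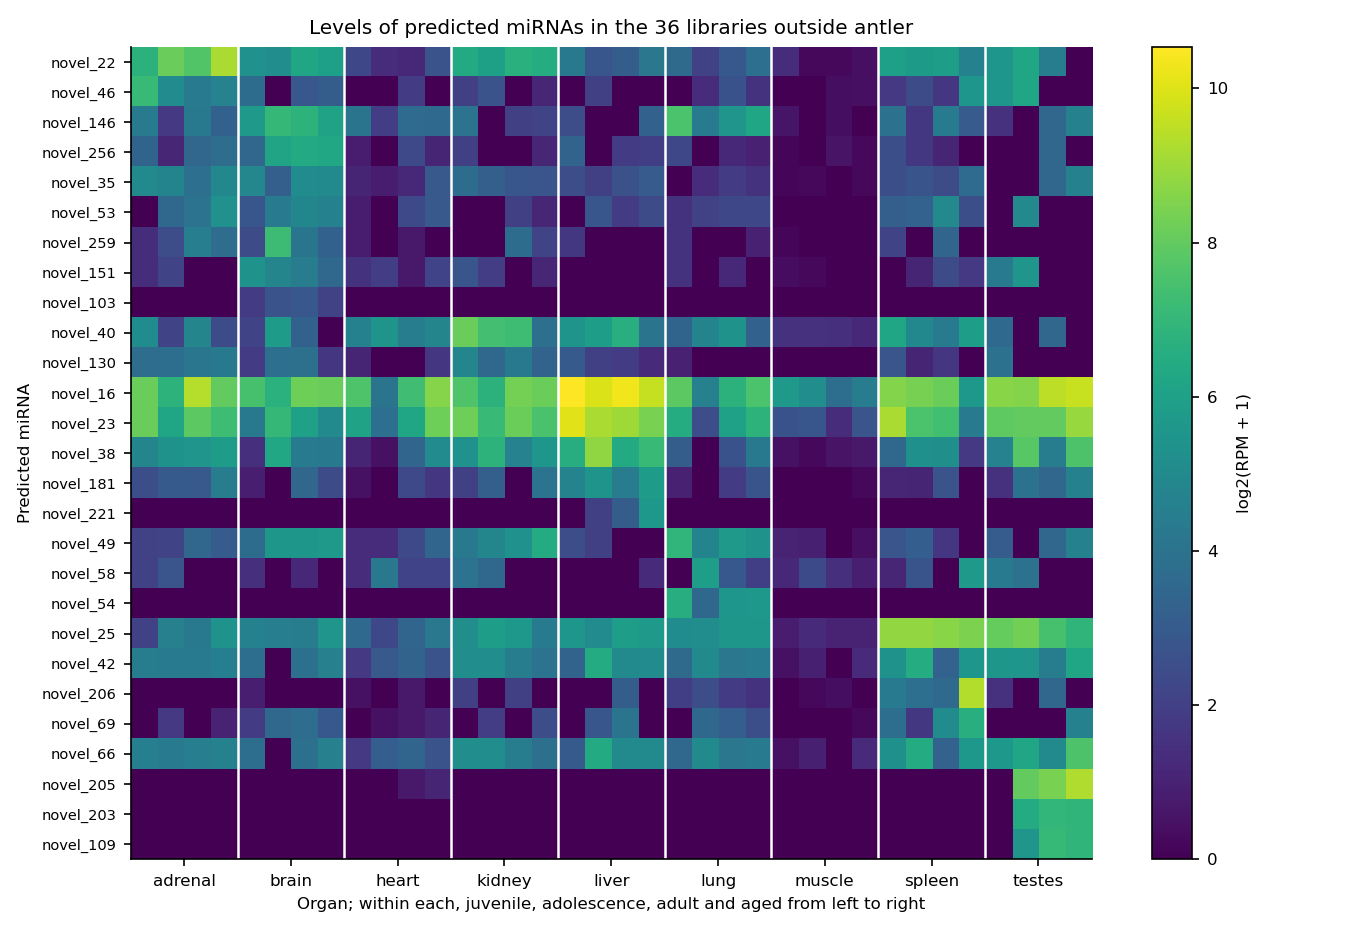
Level of 27 predicted miRNAs, log2(RPM + 1), in the 36 libraries, grouped by organ with the 4 stages from left to right. novel_16 and novel_23 are present in every column and brightest in liver, novel_22 is brightest in adrenal and novel_25 in spleen, while novel_54, novel_103, novel_203, novel_109 and novel_221 have reads in 1 organ alone.

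The 3 predicted miRNAs present everywhere differed in where they were highest. novel_16 had 1486, 1012, 1271 and 783 RPM in juvenile, adolescence, adult and aged liver, and 407, 387, 711 and 812 RPM in testes at the same stages. In muscle it had 50.7, 34.5, 13.2 and 20.9 RPM, and in the other 6 organs 15.6 to 657 RPM. Except for aged testes against aged liver, liver was the highest organ of novel_16 in RPM at every stage. This order depends on the scaling. After the TMM scaling used for the tests below, the mean log2 level of novel_16 was 8.64 in muscle and 8.95 in liver. The highest heart and muscle libraries (9.78 and 9.67) then lay above every liver library (at most 9.53). novel_23 was also highest in liver at every stage other than aged, with 1071, 588, 520 and 343 RPM in liver, 245, 253, 258 and 478 RPM in testes and 1.54 to 6.05 RPM in muscle. Its lowest value outside muscle was 4.61 RPM, in adolescence lung. novel_25 was a spleen miRNA by level: 449, 458, 400 and 354 RPM in spleen, 261, 312, 175 and 119 RPM in testes, and at most 58.9 RPM in any other organ. The spleen values of novel_25 did not overlap with those of the other 8 organs, and the aged spleen library, which stood apart by its known miRNAs, held it at the same order of level as the other 3.

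Differences between organs were fitted with limma over the 149 names that reached 10 reads in 4 or more libraries. Of the 86 predicted miRNAs, 27 passed this filter and 59 did not, so the calls below speak only of these 27. A predicted miRNA that is abundant in 1 organ could pass through that organ's libraries alone (1 of the 27 did, novel_206 in spleen). Others passed only with the help of 1 organ: 18 passed without the brain libraries, 20 without adrenal, 22 without spleen, and 25 to 27 without any other organ. A higher call in the organ that brought a name past the filter is a description. A name was called at an adjusted p below 0.01 and, for contrasts of 1 organ against the mean of the other 8, an absolute log2 difference above 1. Between organs, 17 of the 27 were called by the F test, and over all names tested 67.8% were called. By organ, 18 of the 27 were called higher in at least 1 organ (62.4% of all names tested) and 6 were called lower in at least 1 organ (46.3%). Without the 3 libraries that stood apart, 23 were tested, of which 17 were called by the F test, 18 higher and 10 lower in at least 1 organ. The count of lower calls depended on scaling. Dividing by total miRNA reads in place of TMM factors gave 20 higher and 18 lower calls, and moved the median difference of all names by -2.77 in muscle, -1.13 in heart and 0.43 to 1.24 in adrenal, kidney, liver, spleen and testes, on the log2 scale. Differences below are relative to the TMM scale unless stated.

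Adrenal was called higher for 4 of the 27, where 10.7% of all names tested were. Without the adrenal libraries 20 predicted miRNAs passed the filter. Part of these calls thus concern names that adrenal itself brought past it, among them novel_130, and are descriptions. novel_22 had 109, 278, 202 and 585 RPM in adrenal from juvenile to aged, and kidney was next with 85.0, 62.7, 103 and 92.2 RPM. All 4 adrenal libraries lay above every library of the other organs, the juvenile one by a narrow margin. The fitted difference from the mean of the other 8 organs was 3.42 ± 0.56 (log2, SE, adjusted p = 1.47e-05), and the call was kept when any 1 library was left out. The other 3 were novel_46 (140, 32.7, 20.1 and 24.6 RPM in adrenal; log2 difference 3.19 ± 0.79), novel_130 (12.8, 12.9, 16.7 and 18.2 RPM; 2.05 ± 0.46) and novel_35 (31.9, 25.7, 13.4 and 28.9 RPM; 1.83 ± 0.46). novel_130 was as high in kidney (mean 16.4 RPM, up to 27.3 RPM) as in adrenal (mean 15.1 RPM). Relative to total miRNA reads its difference was 2.49 in kidney and 2.47 in adrenal. novel_46 also had 44.8 RPM in juvenile testes, 74.4 RPM in adolescence testes and 45.5 RPM in aged spleen, so its groups overlapped. Its call was lost without juvenile adrenal (2.59, adjusted p = 0.0354) or adolescence adrenal (3.07, adjusted p = 0.0177). The call of novel_35 was lost without the same libraries (1.67 and 1.53, adjusted p = 0.0233 and 0.0438). novel_25 was called lower in adrenal (3.19, 23.4, 18.4 and 41.7 RPM; log2 difference -1.77 ± 0.41), and this call was lost without juvenile adrenal (-1.06, adjusted p = 0.0579).

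Brain had the most calls, 7 of the 27 higher, where 21.5% of all names tested were. Without the brain libraries 18 predicted miRNAs passed the filter, so part of these calls concern names that brain itself brought past it. novel_256 was the most brain-restricted of them: it had 10.3, 70.6, 85.1 and 77.0 RPM in brain and at most 12.8 RPM in any library of another organ. Only the juvenile brain library overlapped with other organs on the RPM scale. Its log2 difference was 4.29 ± 0.51 (adjusted p = 2.42e-08). novel_146 had 50, 128, 113 and 66.1 RPM in brain (3.63 ± 0.55) and novel_151 had 41.4, 27.1, 21.3 and 10.8 RPM (3.38 ± 0.52). The largest value of novel_151 was nevertheless in adolescence testes, 44.6 RPM from 3 reads. novel_259 reached 149 RPM in adolescence brain and 4.31, 16.3 and 8.67 RPM at the other stages (3.34 ± 0.62), so 1 library carried most of its summed RPM. novel_53 (6.04, 19.0, 27.5 and 23.9 RPM; 2.55 ± 0.54), novel_35 (28.5, 8.14, 33.8 and 31.4 RPM; 2.43 ± 0.46) and novel_49 (12.1, 46.1, 46.3 and 51.0 RPM; 2.34 ± 0.59) overlapped with other organs. The call of novel_49 in brain was lost without adolescence brain (2.08, adjusted p = 0.0117) or aged brain (2.19, adjusted p = 0.01). The other 6 were kept in every fit without 1 library that tested them. However, novel_259 fell under the filter without adolescence brain, its highest library, or adult brain, and novel_53 without adult or aged brain.

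Lung shared its calls with brain. novel_146 (185, 18.5, 44.3 and 72.0 RPM in lung; log2 difference 3.09 ± 0.55) and novel_49 (120, 26.1, 50.8 and 42.2 RPM; 3.02 ± 0.59) were called higher in lung, 2 of the 27, where 7.38% of all names tested were. Both had their lowest lung value in the adolescence library that stood apart, and both calls were kept without any 1 library. The same predicted miRNAs were called lower in liver, where novel_146 had 4.57, 0, 0 and 8.59 RPM (log2 difference -2.30 ± 0.55) and novel_49 had 4.57, 3.03, 0 and 0 RPM (-2.50 ± 0.59). In liver, a count of 0 allows 7.69 RPM in the adult library and 9.09 RPM in the adolescence library. These liver calls were lost without juvenile liver (novel_146, -2.23, adjusted p = 0.0116) or adult liver (novel_146, -1.81, adjusted p = 0.0242, and novel_49, -2.30, adjusted p = 0.0120).

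Liver was called higher for 3 of the 27, where 8.05% of all names tested were. novel_181 had 25.1, 42.4, 20.5 and 54.4 RPM in liver and at most 23.9 RPM in any other library (log2 difference 2.48 ± 0.50, adjusted p = 0.000226), so 3 of the 4 liver libraries lay above all others. Its call was lost without aged liver, by a narrow margin (2.18, adjusted p = 0.0101). novel_38 had 93.6, 440, 87.1 and 137 RPM in liver (2.35 ± 0.69), but adolescence and aged testes held 223 and 191 RPM and adolescence kidney 112 RPM, so the groups overlapped. novel_16 had the largest level of the 3 and the smallest difference (1.48 ± 0.43).

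Spleen was called higher for 3 of the 27, where 6.71% of all names tested were. novel_25, described above, differed by 3.59 ± 0.41 (adjusted p = 5.79e-08), the smallest adjusted p of any predicted miRNA in spleen. novel_206 had 18.8, 13.5, 11 and 632 RPM in spleen and at most 10.3 RPM elsewhere (4.07 ± 0.65). It reached 10 reads in the 4 spleen libraries alone and so passed the filter only through the organ where it was high, which makes its spleen call a description. novel_69 passed the filter only with the help of spleen libraries, so its spleen call is a description too. Of the 3 calls in spleen, that of novel_25 does not have this limit. The aged spleen library held 264 of its 325 reads. novel_69 had 12.9, 2.25, 33.1 and 95.8 RPM in spleen (2.68 ± 0.59) and overlapped with several organs. Without aged spleen neither novel_206 nor novel_69 passed the filter, so their calls could not be fitted without it. The values at the other 3 stages, 11 to 18.8 RPM for novel_206 and 2.25 to 33.1 RPM for novel_69, are those that remain.

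Heart was called higher for 1 of the 27 (11.4% of all names tested) and muscle for 1 (13.4%), and both calls rested on the scaling. novel_40 had 24.0, 42.6, 20.4 and 26.5 RPM in heart, but 276, 166, 155 and 14.0 RPM in kidney. Its log2 difference in heart was 2.26 ± 0.63 after TMM scaling and 0.90, not called, relative to total miRNA reads. novel_58 had 1.29, 4.22, 1.69 and 0.830 RPM in muscle, and 56.9 RPM in adolescence lung and 50.3 RPM in aged spleen, both libraries that stood apart. Its difference in muscle was 3.10 ± 0.77 after TMM scaling and -0.24 relative to total miRNA reads. No predicted miRNA was called higher in kidney on the TMM scale, where 6.71% of all names tested were called. On total miRNA reads 4 were called higher in kidney, among them novel_130, which edgeR and DESeq2 also called there. In muscle novel_53 and novel_130 had 0 reads in all 4 libraries and were called lower (-2.03 ± 0.54 and -1.68 ± 0.46), as was novel_146 (0.516, 0, 0.308 and 0 RPM; -1.77 ± 0.55). The fitted values of novel_53 and novel_130 depend on the 1 RPM added before the logarithm, and edgeR and DESeq2 on whole reads did not call any of the 3.

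Testes was called higher for novel_25 alone (1.41 ± 0.41), 1 of the 27, where 6.71% of all names tested were. novel_40 was called lower in testes, where it had 11.2, 0, 10.3 and 0 RPM (-3.14 ± 0.63). The adolescence and aged testes libraries had 67231 and 41866 reads, in which a count of 0 allows 44.6 and 71.7 RPM, so the level of novel_40 in them was not detectable at this depth. The call was lost without adolescence testes (-2.39, adjusted p = 0.0124). The higher call of novel_25 in testes was also lost when the 3 libraries that stood apart were left out together.

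**Figure D3:**
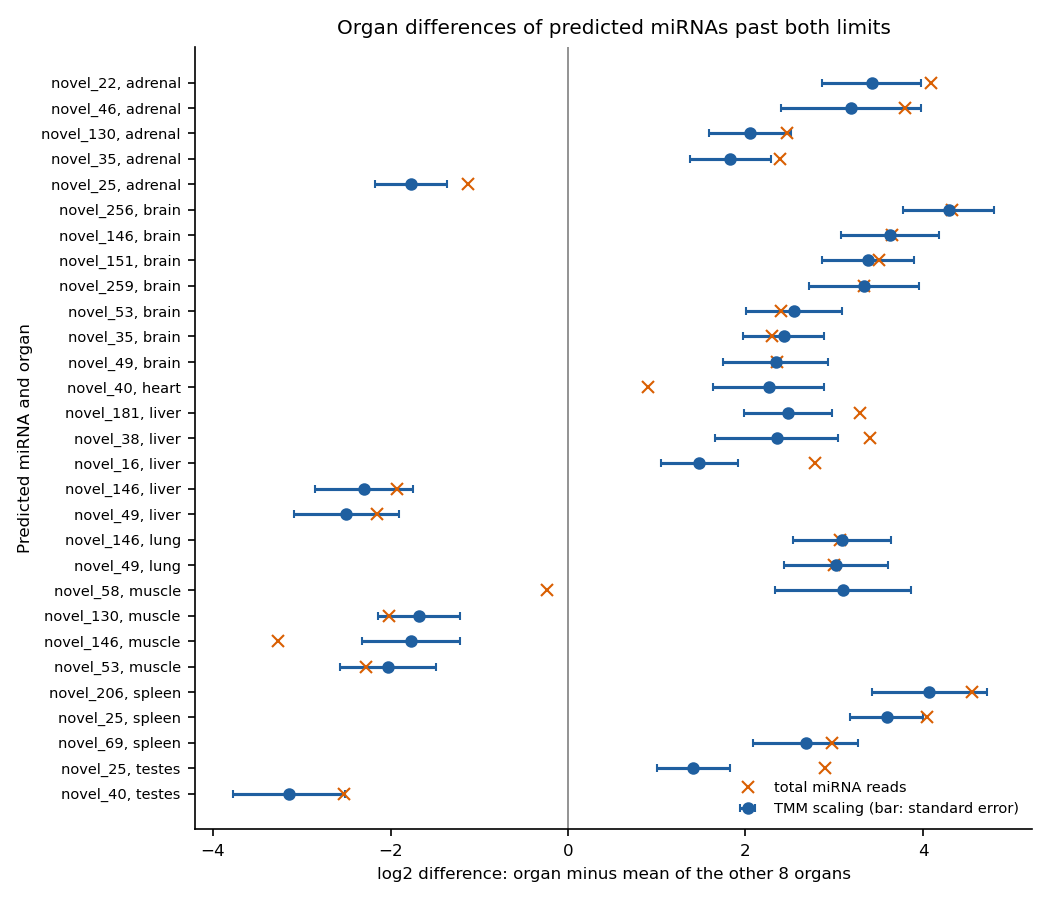
The 29 differences of predicted miRNAs past both limits, as the log2 level in the organ minus the mean of the other 8 organs. Blue points with bars show the TMM-scaled estimate and its standard error, and orange crosses the estimate relative to total miRNA reads. Brain and lung values hardly moved with the scaling, novel_40 in heart fell to 0.90 and novel_58 in muscle changed sign to -0.24.

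Of the 29 calls of a predicted miRNA in an organ, 13 were kept in every fit without 1 library in which it was tested. The 5 least stable were those closest to the limits. novel_146 in muscle was lost without any 1 of 17 libraries (log2 difference -2.50 to -1.68, adjusted p at most 0.0191). These were adolescence and adult adrenal, adult and aged brain, juvenile heart, the 4 kidney libraries, juvenile, adult and aged lung, juvenile and adolescence liver, aged muscle, and juvenile and adult spleen. novel_16 in liver was lost without any 1 of 16 (1.22 to 1.77, adjusted p at most 0.0732), namely juvenile and aged adrenal, adult brain, adolescence and adult heart, juvenile and adolescence kidney, adult lung, the 4 liver libraries, juvenile, adolescence and aged muscle, and adult testes. novel_25 in testes was lost without any 1 of 15 (1.09 to 1.77, adjusted p at most 0.0707), namely aged adrenal, adolescence and adult heart, aged kidney, juvenile and aged lung, adolescence and aged liver, juvenile, adolescence and aged muscle, adolescence spleen, and juvenile, adolescence and adult testes. novel_38 in liver was lost without any 1 of 12 (1.86 to 2.77, adjusted p at most 0.0759), namely aged adrenal, adult brain, adolescence and adult heart, adult kidney, juvenile, adolescence and aged liver, juvenile, adolescence and aged muscle, and adult testes. novel_40 in heart was lost without any 1 of 9 (2.03 to 2.54, adjusted p at most 0.0619), namely the 4 heart libraries, aged adrenal, aged liver, juvenile and adolescence muscle, and adolescence testes. In muscle, novel_58 was lost without any 1 of the 4 muscle libraries (2.46 to 2.75, adjusted p 0.0185 to 0.0292), novel_130 without juvenile or adult muscle (-1.51 and -1.80) and novel_53 without adult or aged muscle (-1.97 and -1.99).

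The second question was whether a predicted miRNA kept to 1 organ at all stages. A predicted miRNA counted as highest in an organ when that organ was first at each of the 4 stages, with at least 3 reads there and at least 2 times the next organ. By this rule 1 of the 86 qualified, novel_54 in lung. Without the limit on the fold and the reads, 7 were highest in the same organ at all 4 stages: novel_22 in adrenal, novel_103 and novel_256 in brain, novel_181 in liver, novel_54 in lung, and novel_25 and novel_206 in spleen. On TMM-scaled values 4 met the full rule, novel_54 in lung, novel_151 and novel_256 in brain and novel_25 in spleen.

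novel_54 was read in lung alone. It had 99 reads in juvenile, 7 in adolescence, 35 in adult and 50 in aged lung, or 94.6, 10.8, 45.6 and 48.0 RPM, and 0 reads in the other 32 libraries. All 4 lung libraries were above 0, and the lowest was the adolescence library that stood apart. Over the 4 lung libraries it had 191 reads in 3506058, or 54.5 RPM (95% Poisson interval 47.0 to 62.8, for counting error only). The lung level of 54.5 RPM was set against the 3 reads that a count of 0 allows over the 4 libraries of an organ. It was 13.5 times that limit in testes, the shallowest organ, and 467 times in muscle, the deepest, with the counting error in lung left out. Without adolescence lung its lowest lung value was 45.6 RPM.

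novel_103 was read in brain alone, at a far lower level. It had 3, 2, 5 and 3 reads in brain from juvenile to aged, or 2.59, 5.43, 6.26 and 3.25 RPM, and 0 reads in the other 32 libraries. Its 13 reads in 3249373 gave 4 RPM (2.13 to 6.84). The limit that a count of 0 allows over the 4 testes libraries, 4.04 RPM, is above this level, so its absence from testes was not detectable at this depth, and its ratio to the limit exceeded 1 in the other 7 organs (34.3 in muscle). With at least 3 reads asked for at each stage, novel_103 no longer met the rule and novel_54 did. After thinning to equal depth neither had reads at all 4 stages.

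**Figure D4:**
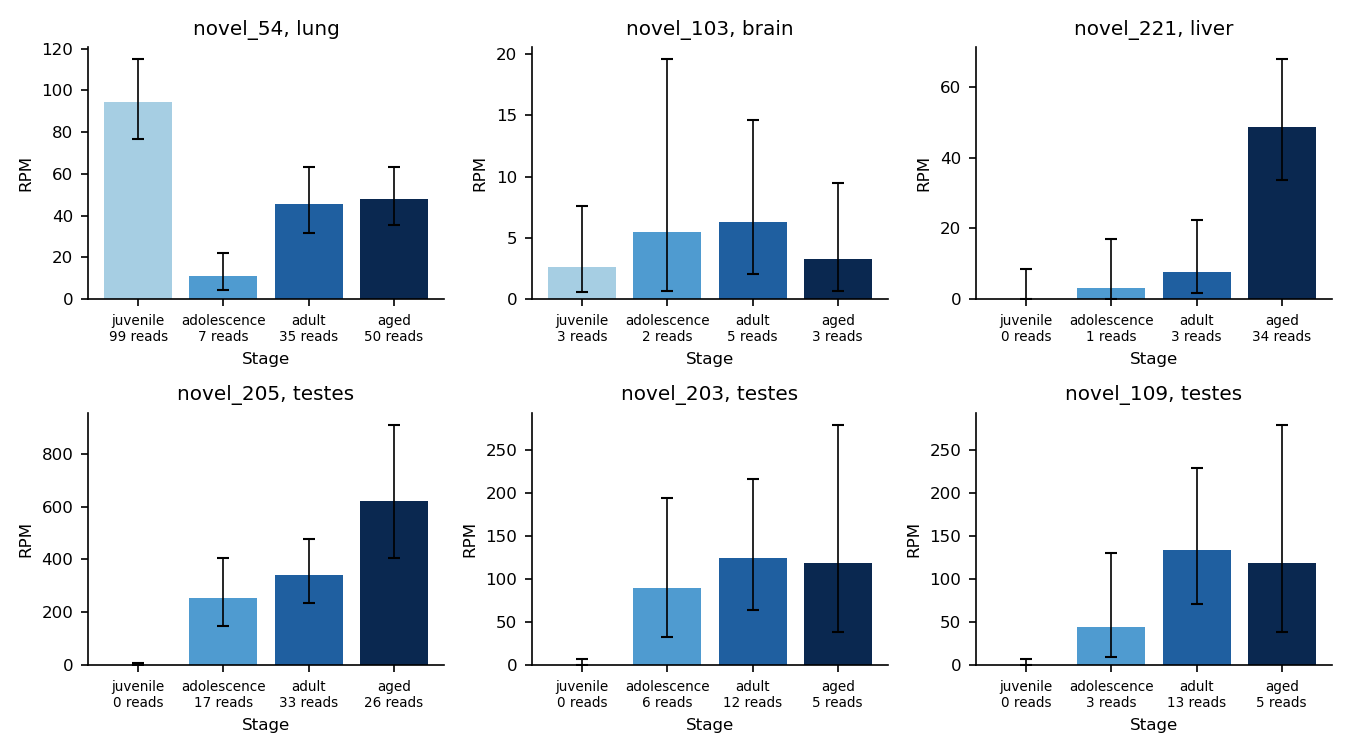
RPM by stage of 6 predicted miRNAs in the organ that held nearly all of their reads, with 95% Poisson intervals for counting error and the reads under each bar. novel_54 and novel_103 had reads at all 4 stages, novel_221 mostly in aged liver, and novel_205, novel_203 and novel_109 had 0 reads in juvenile testes.

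A further 3 predicted miRNAs had reads in 1 organ alone but at 3 of its stages, and these were named after their values were seen. novel_203 had 0, 6, 12 and 5 reads in testes from juvenile to aged (0, 89.2, 124 and 119 RPM), and novel_109 had 0, 3, 13 and 5 reads (0, 44.6, 134 and 119 RPM). novel_205, with 2 heart reads besides, had 0, 17, 33 and 26 reads in testes (0, 253, 340 and 621 RPM). The juvenile testes library had 535668 reads, more than the other 3 testes libraries together (206115), so 3 reads there would be 5.60 RPM. The pooled level of the 3 later libraries was 65.8 times this juvenile limit for novel_205, 19.9 times for novel_203 and 18.2 times for novel_109. For the lowest later library it was 45.1, 15.9 and 7.97 times. These ratios leave out the counting error of the later libraries. All 3 passed the random sampling model of single libraries for juvenile testes against each later testes library, with q from 6.09e-33 to 0.00049. That model compares the reads of these libraries, not the stages. The 3 were named after these values were seen, so the q values are a description. The juvenile testes library was also the one nearest to juvenile adrenal by its known miRNAs, and the part of this in the result was not tested. Without that library the 3 had reads in every testes library.

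novel_221 was read in liver alone, with 0, 1, 3 and 34 reads from juvenile to aged (0, 3.03, 7.69 and 48.6 RPM). The aged liver value was 14.1 times the pooled value of the other 3 liver libraries, 3.45 RPM from 4 reads. Aged liver passed the random sampling model against each of them (q from 2.48e-07 to 0.000116). The name and the library were picked after these values were seen, so the q values are a description.

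Other predicted miRNAs drew most of their level from 1 library. For 8 of the 86, 1 library with at least 10 reads held at least 50% of the RPM summed over the 36, a limit set after the values were seen. Besides novel_205, novel_221 and novel_259 these were novel_206 (aged spleen, 88.3%), novel_61 (aged spleen, 93.9%, 14 of 16 reads), novel_179 (adolescence spleen, 74.0%, 56 of 74 reads), novel_48 (adult liver, 60.2%, 17 of 33 reads) and novel_194 (adult spleen, 52.1%, 102 of 158 reads). Spleen was the organ in 4 of the 8, at 3 different stages. novel_206 went from 18.8, 13.5 and 11 RPM to 632 RPM in aged spleen, 44.0 times the pooled value of the other 3 (14.4 RPM). It passed the random sampling model against each (q from 1.64e-99 to 8.06e-94). Aged spleen was singled out by its high value, so this outcome followed from the choice and is a description. The aged spleen library is the one nearest to adolescence lung by known miRNAs. In adolescence lung novel_206 had 4.61 RPM.

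Change with stage was tested over the same 36 libraries with organ in the model. By the F test over 4 stages, limma called 0 of the 27 predicted miRNAs, where 4.03% of all names tested were called. At an unadjusted p under 0.05 there were 12 of the 27 and 53 of all 149. On recovered whole reads, edgeR called 0 and DESeq2 called 2, novel_42 and novel_66. The 3 with the smallest adjusted p were novel_164, novel_75 and novel_76 (each 0.0260). The mean log2 level of novel_164 over the 9 organs was 2.85 in juvenile, 1.06 in adolescence, 1.33 in adult and 1.07 in aged libraries. The SDs over organs were 1.14 to 1.33 and include the differences between organs, which the model takes out. Its adjusted p ran from 0.00722 to 0.343 over the alternatives, with a call when juvenile brain was left out. For novel_75 the means were 2.06, 1.21, 2.81 and 2.57, and its adjusted p ran from 0.00662 to 0.343.

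For adult and aged against juvenile and adolescence libraries (18 against 18), limma again called 0 of the 27, where 4.03% of all names tested were called. The 18 libraries of a side are not independent replicates, since the organs of a stage share their deer, and the same limit on the p-values holds. There were 8 of the 27 and 54 of all 149 at an unadjusted p under 0.05, edgeR called 0, and DESeq2 called 3 (novel_151, novel_41 and novel_52). novel_151 had the smallest p, with a log2 difference of later minus earlier stages of -1.18 ± 0.32 (adjusted p = 0.0133). It was lower at the later stages in 7 of 9 organs, higher in spleen and without reads in liver. In the brain, where it was highest, it had 41.4, 27.1, 21.3 and 10.8 RPM from juvenile to aged. novel_75 and novel_76 shared the next p, with 1.05 ± 0.31 (adjusted p = 0.0185), and were higher at the later stages in 8 of 9 organs. novel_41 (-1.57 ± 0.47) and novel_52 (-1.28 ± 0.39), named because DESeq2 called them, had an adjusted p of 0.0199 each and were lower at the later stages in 7 of 9 organs.

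**Figure D5:**
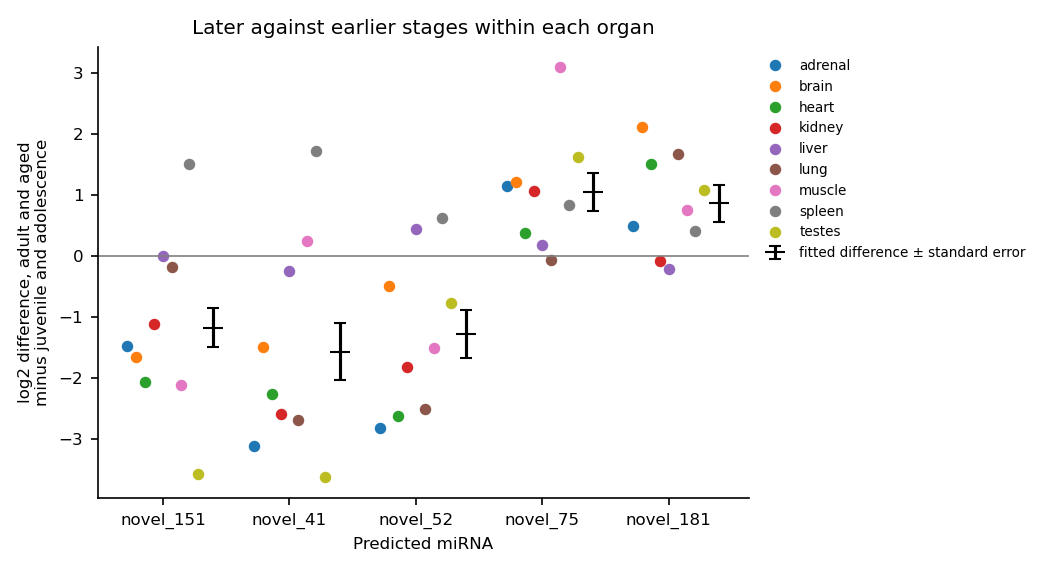
Log2 difference of adult and aged from juvenile and adolescence libraries for 5 predicted miRNAs, with 1 coloured point per organ and the fitted difference with its standard error in black. Most organs lie below 0 for novel_151, novel_41 and novel_52 and above 0 for novel_75 and novel_181, and the spleen point of novel_151, novel_41 and novel_52 lies above 0.

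The count of 0 changed most without the aged spleen library. Without it 5 of the predicted miRNAs tested were called between later and earlier stages, novel_151, novel_52, novel_58, novel_75 and novel_76, and without the 3 libraries that stood apart 4 were called, novel_151, novel_52, novel_75 and novel_76. Aged spleen held novel_58 at 50.3 RPM and novel_52 at 9.58 RPM, the highest of the 4 spleen values in each case. novel_151 was also called when any 1 of the other spleen libraries, adolescence brain, adolescence lung or adult lung was left out. novel_41 was called without adolescence brain, and novel_75 and novel_76 without the juvenile stage. An interaction of organ with this contrast was called for 0 of the 27 by limma, with 3 at an unadjusted p under 0.05 (10 of all 149).

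Stages were also compared within each organ between single libraries, with the random sampling model of DEGseq at q below 0.01 and an absolute log2 fold above 1. In the 54 comparisons there were 354 calls of predicted miRNAs among 3565 tests (9.93%), where 19.3% of all 13140 tests were called. The share called was below that of all names in every organ: 14.6% against 25.9% in brain, 12.9% against 21.1% in spleen, 12.2% against 19.7% in adrenal, 10.4% against 25.1% in heart, 9.25% against 20% in lung, 8.59% against 20.9% in testes, 7.05% against 17.6% in kidney, 6.74% against 12.7% in muscle and 5.81% against 8.99% in liver. The calls fell on 58 predicted miRNAs, 56 of the 86 and 2 with under 10 reads, and the most were for novel_23 (27 of 54 comparisons), novel_38 and novel_51 (25 each) and novel_16 (24), which are among those with the most reads. novel_22 passed in adrenal for aged against each of the 3 other stages and for adolescence against juvenile. In lung novel_54 passed for juvenile against adult, and for adolescence, the library that stood apart, against each other stage. The counts include the comparisons with adolescence lung, aged spleen and juvenile testes, so the shares in lung, spleen and testes rest in part on libraries that stood apart. This model takes the sampling of reads as the only error, and has no replicate at a stage. It calls a given fold less readily at few reads. Predicted miRNAs had a median of 16 reads in all and known miRNAs 45. The shares above are not matched for reads, so they do not show which kind changes more with stage.

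Some names moved as pairs. novel_75 and novel_76 had the same number of reads in each of the 36 libraries (157 reads each), so their reads cannot be told apart, and they are counted as 2 names with that limit. Merged into 1, they were called in both stage tests. novel_42 (523 reads) and novel_66 (531 reads) were equal in 18 libraries and differed by at most 3 reads in 35 of 36 (r = 0.988 of their log2 levels). Their levels are uncertain where reads could be assigned to either name.

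For the 10 with the most reads, novel_54 and novel_103, the known miRNA with the most similar pattern was taken from 201 candidates by Pearson's r of log2(RPM + 1) over the 36 libraries. Libraries share depth, and the r is a description. novel_103 was most like miR-128 (r = 0.96), which had 30 reads in 7 libraries, and novel_54 was most like miR-1468 (r = 0.65). novel_23 was most like miR-2887 (r = 0.95), novel_16 like miR-2478 (0.91), novel_66 like miR-17-5p (0.91), novel_42 like miR-186 (0.91) and novel_22 like miR-409a (0.88). For novel_25 it was miR-145 (0.85), for novel_38 miR-2887 (0.83), for novel_40 miR-1307 (0.69), for novel_146 miR-2366 (0.63) and for novel_49 miR-1468 (0.62). Without the 4 muscle libraries, the same r were 0.55 to 0.96 over 32 libraries, and another known miRNA came first for novel_25 (miR-1388-5p, 0.75), novel_38 (miR-193b, 0.77) and novel_22 (miR-409b, 0.84). By the 27 predicted miRNAs tested, 27 of 36 libraries were nearest to a library of their own organ, among them all 4 of brain, liver and muscle, and 2 of 4 in heart, kidney and testes. By the 122 known names, 33 of 36 were.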

How the data were processed

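Small RNA libraries of 9 organs at 4 stages were examined, as listed above. The authors removed adapters and other RNA classes, matched reads to miRBase 22.0, predicted further miRNAs with miRDeep 2.0.5, and deposited RPM, the reads of a miRNA over all miRNA reads, times 1000000. The column header says tpm, but there is no division by length. Divided by the value of 1 read, all 7982 deposited RPM values were whole to within 0.01 (largest distance 0.000243), so reads could be recovered, and 1 read stood for 0.129 to 23.9 RPM. A design of counts had been foreseen, and limma 3.58.1 took its place (R 4.3.3), on TMM-scaled log2(RPM + 1), with organ and stage in the model and Benjamini-Hochberg adjustment over 149 names. Same-stage libraries of different organs share deer, and their deviations from the organ means had a median r of 0.155 (-0.0487 for different stages), so stage was kept as the block. edgeR 4.0.16 and DESeq2 1.42.0 on recovered reads, other scalings, filters and left-out libraries were alternatives. Single libraries were compared by the random sampling model of DEGseq in Python 3.11.15, with q values. Scripts were tested on simulated data. Intervals and limits of a count of 0 (3 reads) cover counting error only. The members and lists were chosen with earlier results of these data known. Named in the text are novel_103, novel_54, novel_22, the 10 with the most reads, those in all 36 libraries or in 1 organ alone at 4 stages, per organ the largest rise, and those with the smallest p between stages. Other names were added after their values were seen, among them all called members.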

Additional observations from a re-analysis of the deposited data

Results flagged for a closer look

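In a group of 4 libraries, 1 library was marked where its gap to the nearest other value passed Dixon's 95% critical value for its part of the range. Of 32 groups examined (the share of predicted miRNAs in each organ, and each named miRNA in its highest organ), 5 were marked. Chance marks about 1 in 20 where groups are not chosen by their values. Here miRNAs were named after their values were seen, so the 5 cannot be set against that rate. These were novel_38 at 440 RPM in adolescence liver, novel_46 at 140 RPM in juvenile adrenal, novel_58 at 56.9 RPM in adolescence lung, novel_206 at 632 RPM in aged spleen and novel_259 at 149 RPM in adolescence brain. In each case the library was the highest of its organ.

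The 4 antler libraries, which are outside the comparisons above, listed 38 numbered names with 2397 reads in all (177 to 1560 reads per library). Of these names, 20 (1393 reads) were listed in antler alone, and the other 18 share their number with a name listed elsewhere.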

How the results depend on the processing

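The 17 predicted miRNAs that differed between organs, the 18 called higher and the 6 called lower became 17, 16 and 6 with no replicate block (the stage term left out), and the calls between stages stayed at 0 with no organ term. With every name of at least 10 reads tested, 38 differed and 38 were called higher, since 86 were tested. The 6 lower calls became 18 on total miRNA reads, 3 with edgeR and 10 without the 3 libraries that stood apart. The 0 calls between stages became 2 with DESeq2 and 1 with near-identical names merged, and the 0 calls of later against earlier stages became 1 with DESeq2 size factors, 3 with DESeq2, 1 with merged names and 4 without the 3 libraries. The cause was not tested. Leaving out 1 library, stage or organ gave 9 to 19 that differed, 9 to 19 higher, 1 to 10 lower, 0 to 2 between stages and 0 to 5 between later and earlier stages, and the lowest values, from leaving out a stage, came with 18 to 22 members tested. Of the named organ differences, novel_58 in muscle reversed to -0.24 on total miRNA reads. The 1 predicted miRNA highest in 1 organ at all stages became 4 on TMM-scaled RPM, 4 without the 3 libraries, 0 with 10 reads asked for, 0 after thinning and 1 to 5 without a stage. The 2 read in 1 organ alone at all stages became 1 with 3 reads asked for, 5 at any number of stages, 4 without the 3 libraries, 0 after thinning and 1 to 5 without a stage. The 3 with reads in all libraries became 1 at 10 reads, 0 after thinning and 3 to 4 without an organ. The 86 of at least 10 reads became 76 to 81 without a stage. The 354 single-library calls became 152 to 211 without a stage, when 27 of the 54 comparisons remain, and 319 with an exact binomial test.

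Depth limits these results most in testes, where 1 read stood for up to 23.9 RPM. At 1 library per organ and stage, no stage within an organ has a replicate, and 59 of the 86 predicted miRNAs had too few reads for the tests.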
